A study of Rattus norvegicus with 39 samples.

Results

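Nfkbia, Il6r, Errfi1, Klf9, Cebpb, Cebpd, Gpd1, Rhob and Txnip, 9 genes that glucocorticoids are known to induce in many tissues, were followed in CA1 tissue of the rat hippocampus. The 9 genes were chosen with earlier results of these data known. Their shares set beside all tested probe sets are therefore a description. Their probe sets were taken by gene symbol from the platform table. This gave 17 probe sets of the 8740 that are not controls, or 9 of the 4736 genes with a probe set of their own. Each probe set was kept apart, since Errfi1 and Cebpd had 3 each, Nfkbia, Klf9, Cebpb and Txnip had 2 each, and Il6r, Gpd1 and Rhob had 1 each.

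The tissue came from 39 male Fischer 344 rats, all 18 months old at the end, with 1 Affymetrix array per animal. The Low-CORT group (10 animals) had been adrenalectomized, which removes the body's own source of corticosterone, and carried a slow-release pellet of 25 mg corticosterone for 3 months. The Intermediate-CORT group (9 animals) had been adrenalectomized and carried a 200 mg pellet for the same time. The injected Low-CORT group (10 animals) had been adrenalectomized, carried the 25 mg pellet, and got 5 mg corticosterone into the abdomen on each of 4 days just before the end. The Sham group (10 animals) was sham operated, kept its adrenals and carried an inert pellet. All adrenalectomized animals drank saline with sucrose and received corticosteroid injections until the pellets went in, and the animals with 25 mg pellets stayed on that drinking water. Pellet dose and drinking water therefore cannot be told apart between the Intermediate-CORT group and the groups with 25 mg pellets. Against Sham, adrenal removal, the earlier injections and the hormone pellet come together in every adrenalectomized group and cannot be told apart. In the groups with 25 mg pellets the drinking water kept to the end is added to these. Tissue was taken in the morning, and the labels do not state the time between the last injection and death. A pellet releases hormone steadily, and does not give the daily and stress-related peaks of an intact rat.

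Corticosterone acts through the glucocorticoid receptor and the mineralocorticoid receptor, which are both abundant in hippocampal neurons. The receptors with bound hormone enter the nucleus and raise transcription of target genes, many of which are themselves regulators. Nfkbia encodes an inhibitor that holds NF-kB in the cytoplasm, Il6r the receptor chain that binds interleukin-6, and Errfi1 an inhibitor of the epidermal growth factor receptor. Klf9, Cebpb and Cebpd encode transcription factors. Gpd1 encodes the cytosolic glycerol-3-phosphate dehydrogenase, Rhob a small GTPase that acts on the actin cytoskeleton, and Txnip an alpha-arrestin that binds thioredoxin and restrains glucose uptake.

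Values are the deposited log2 expression levels, so a difference of 1 is a doubling, and levels of different probe sets cannot be set against each other. The array medians lay between 7.27 and 7.33. CA1 is defined by pyramidal neurons, and of 8 marker genes of such neurons fixed for this work 3 had probe sets, of which Camk2a and Pou3f1 passed the filter on low values and Slc17a7 did not. Pou3f1 lay between 8.01 and 9.50 on the 39 arrays. Calb1, which marks dentate granule cells but is also made by CA1 pyramidal cells, was measured between 8.87 and 10.36, so the data do not tell how free of dentate gyrus the tissue was. A probe set was tested when its mean over all arrays reached 6.28, the 30th percentile, which left 6118 probe sets. Of the 17 probe sets, 15 passed this filter and all 9 genes kept at least 1. M23572_at of Errfi1 (mean 5.17) and S77528cds_s_at of Cebpb (mean 6.26) fell below it and are given by their values only.

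With 1 mean per group in limma, and Benjamini-Hochberg adjustment of p-values over all 6118, an F test over the 4 groups called 6 of the 15 probe sets at an adjusted p under 0.05. They stood for Il6r, Errfi1, Nfkbia (both probe sets), Gpd1 and Klf9. Of all tested probe sets, 2.27% were called in this test. Il6r had the smallest p among the 9 genes (adjusted p = 1.49e-04) and stood at rank 16 of the 6118.

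In the Low-CORT group, messenger RNA of Il6r, Errfi1, Nfkbia and Gpd1 was lower than in the Sham group. These are the 4 genes behind the 5 of 15 probe sets that passed the test, all of them lower, against 0.637% of all tested probe sets that were called lower. The genes were chosen with earlier results of these data known, so these shares are a description. Differences that passed ran from 1.15-fold lower for Gpd1 to 1.38-fold lower for Il6r. All 15 tested probe sets had a negative value, with a median log2 fold change of -0.23, against -0.01 for all tested probe sets, of which 52.9% were lower. Of the 15, 11 had an unadjusted p under 0.05, against 13.6% of all tested probe sets. Klf9, Cebpb, Cebpd, Rhob and Txnip did not pass. Hormone level, adrenal removal, earlier injections and drinking water differ together between these 2 groups and cannot be told apart. In tissue blocks of this kind, less RNA per cell and fewer cells of a type cannot be told apart.

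**Figure D1:**
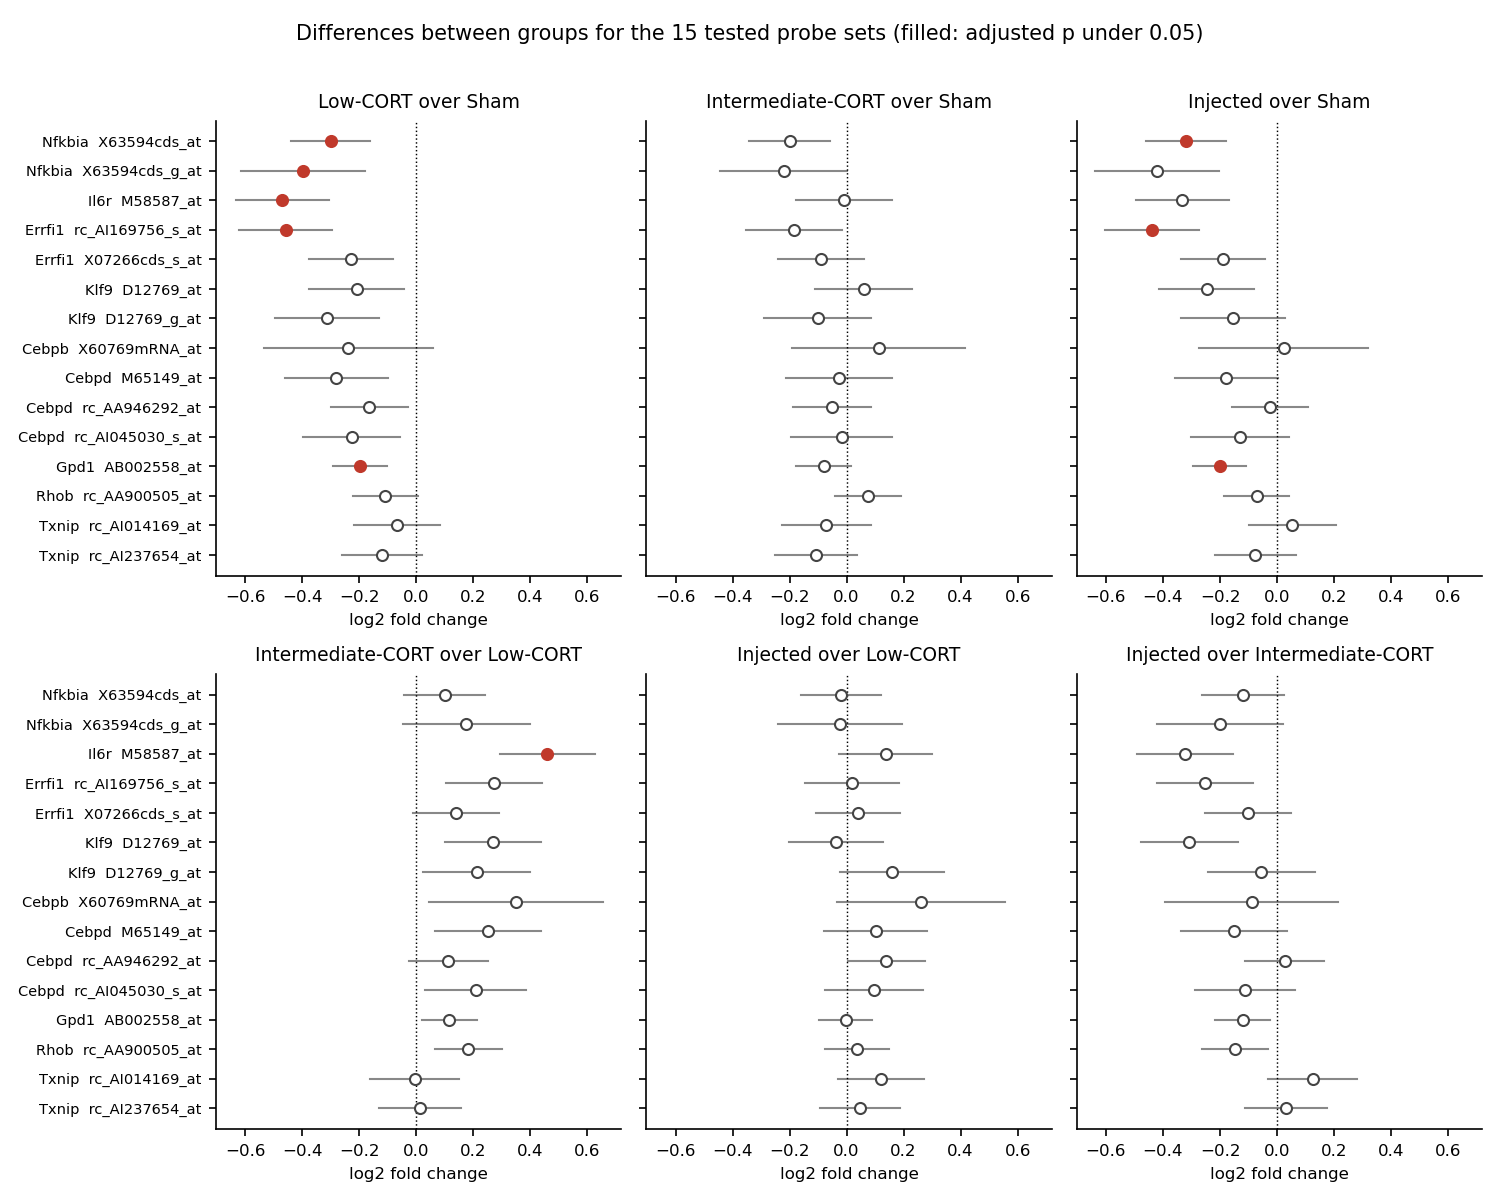
Log2 fold change (x axis) of the 15 tested probe sets (y axis) in the 6 comparisons between groups, with 95% intervals as lines and filled points at an adjusted p under 0.05. In the Low-CORT over Sham panel all 15 points lie left of 0 and 5 are filled, whereas in the panel of injected over Low-CORT the points lie on both sides of 0 and 0 are filled.

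The promoters of 6 of the 9 genes (Nfkbia, Il6r, Errfi1, Klf9, Cebpb and Rhob) were found in the RefSeq table of the rat assembly GRCr8, as 250 bases before to 50 bases after the annotated start. Those of Nfkbia, Il6r and Errfi1 are shown because these genes had lower values together in the Low-CORT group. Capitals mark the motifs that a search of both strands found, and each sequence runs 5′ to 3′ on the gene's own strand. The glucocorticoid response element was searched as the palindrome GNACANNNTGTNC, which was present in 0.439% of 33469 promoters of the same length and in 0 of the 6. The NF-kB site was searched as GGGANTTTCC, present in 0.362% of promoters and, of the 6, in that of Nfkbia alone. The TATA box was searched as TATAAA (14.2% of promoters, and 3 of the 6) and the E-box as CACGTG (6.42% of promoters, and 1 of the 6). No overlap between motifs occurred in these 3 windows.
The windows lie at chr6:78597023-78597322 on the minus strand for Nfkbia, chr2:177645160-177645459 on the minus strand for Il6r and chr5:166606591-166606890 on the plus strand for Errfi1.
Nfkbia: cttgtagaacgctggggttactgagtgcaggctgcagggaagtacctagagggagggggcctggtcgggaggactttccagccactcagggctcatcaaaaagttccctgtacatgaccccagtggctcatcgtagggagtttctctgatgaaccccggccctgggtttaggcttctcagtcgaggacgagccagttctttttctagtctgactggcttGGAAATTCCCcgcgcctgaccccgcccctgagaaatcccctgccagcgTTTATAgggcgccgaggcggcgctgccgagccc
Il6r: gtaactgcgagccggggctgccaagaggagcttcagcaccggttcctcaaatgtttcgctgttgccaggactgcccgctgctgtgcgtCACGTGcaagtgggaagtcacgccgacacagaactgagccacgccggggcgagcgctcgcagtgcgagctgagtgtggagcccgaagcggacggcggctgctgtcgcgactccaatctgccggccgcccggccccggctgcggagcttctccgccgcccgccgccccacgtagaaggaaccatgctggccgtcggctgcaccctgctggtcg
Errfi1: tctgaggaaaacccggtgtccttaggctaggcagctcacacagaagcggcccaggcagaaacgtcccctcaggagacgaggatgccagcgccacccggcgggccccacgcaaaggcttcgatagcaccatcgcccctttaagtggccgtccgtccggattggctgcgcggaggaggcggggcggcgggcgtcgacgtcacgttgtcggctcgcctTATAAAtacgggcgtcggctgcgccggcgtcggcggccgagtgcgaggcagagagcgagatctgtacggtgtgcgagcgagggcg
The capitals are the NF-kB site and then a TATA motif of the opposite strand in Nfkbia, the E-box in Il6r and the TATA box in Errfi1. The NF-kB motif of Nfkbia starts 31 bases before the annotated start, the TATA box of Errfi1 35 bases before it, and the E-box of Il6r 162 bases before it. The TATA motif of Nfkbia lies on the other side, 17 bases after the annotated start. A match describes these letters only, and a missing match says only that the letters are not in this window.

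Among the signalling genes, Nfkbia was lower in both adrenalectomized groups with a 25 mg pellet than in Sham. Its probe set X63594cds_at had a lowest, median and highest value of 7.67, 7.79 and 7.99 in Low-CORT animals. These were 7.74, 7.91 and 8.00 in Intermediate-CORT animals, 7.62, 7.80 and 7.96 in injected animals, and 7.71, 8.07 and 8.45 in Sham animals. All 10 Low-CORT and all 10 injected animals lay below the Sham mean, but the groups overlapped because the Sham animals spread widely. Nfkbia fell by 0.30 in Low-CORT relative to Sham (SE 0.07, adjusted p = 0.0117). The second probe set, X63594cds_g_at, built on the same sequence entry, averaged 6.81 ± 0.15 in Low-CORT and 7.20 ± 0.37 in Sham (SD, n = 10 each), a log2 fold change of -0.40 (limma adjusted p = 0.0409). The 2 probe sets moved together over the 39 arrays (Pearson r = 0.90, given as a description). In order of the group means of X63594cds_at, Sham was highest (8.11), then Intermediate-CORT (7.91), Low-CORT (7.81) and injected (7.79), and no neighbouring pair in this order passed the test.

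Il6r was lower in Low-CORT than in Sham and higher in Intermediate-CORT than in Low-CORT. Its single probe set, M58587_at, had a lowest, median and highest value of 6.34, 6.65 and 6.76 in Low-CORT, 6.76, 7.13 and 7.40 in Intermediate-CORT, 6.47, 6.80 and 6.97 in injected, and 6.75, 7.10 and 7.37 in Sham animals. Its mean over all arrays was 6.88, at percentile 41.2 of the probe sets, where the filter stood at 6.28. Of the 10 Low-CORT animals, 8 lay below every Sham animal, so these groups overlapped only at the edge. The log2 fold change of Low-CORT over Sham was -0.47 (SE 0.08, adjusted p = 3.25e-04). In order of level, Sham (7.09) and Intermediate-CORT (7.08) were followed by injected (6.75) and Low-CORT (6.62). The difference between Intermediate-CORT and Sham was -0.01, with a 95% interval of -0.18 to 0.16, and that between injected and Low-CORT was 0.14, with an interval of -0.03 to 0.30.

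Errfi1 was measured with 3 probe sets that did not move as one. The probe set rc_AI169756_s_at had a lowest, median and highest value of 6.92, 7.07 and 7.30 in Low-CORT, 7.16, 7.32 and 7.63 in Intermediate-CORT, 6.82, 7.11 and 7.28 in injected, and 7.10, 7.60 and 8.04 in Sham animals. In Low-CORT, 6 of 10 animals lay below every Sham animal. The log2 fold change of Low-CORT over Sham was -0.46 (SE 0.08, adjusted p = 4.62e-04). X07266cds_s_at averaged 8.10 ± 0.13 in Low-CORT and 8.33 ± 0.22 in Sham (SD, n = 10 each), a value of -0.23 that did not pass (limma adjusted p = 0.0977). Over the 39 arrays these 2 probe sets of Errfi1 correlated at r = 0.51, and at r = 0.24 once the group means were removed. M23572_at, below the filter, averaged 5.14 ± 0.09 in Low-CORT and 5.25 ± 0.28 in Sham (SD, n = 10 each) and correlated with rc_AI169756_s_at at r = 0.21.

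The deviations of X07266cds_s_at from the group means went down with the subject number (r = -0.79 over 39 arrays, both taken within groups). In Sham, animals 1 to 5 lay between 8.41 and 8.62 and animals 6 to 10 between 7.96 and 8.32. What the numbering reflects is not stated in the labels, and its part in the result was tested only as a covariate. With subject order in the fit, the value of -0.23 passed (limma adjusted p = 0.00352).

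**Figure D2:**
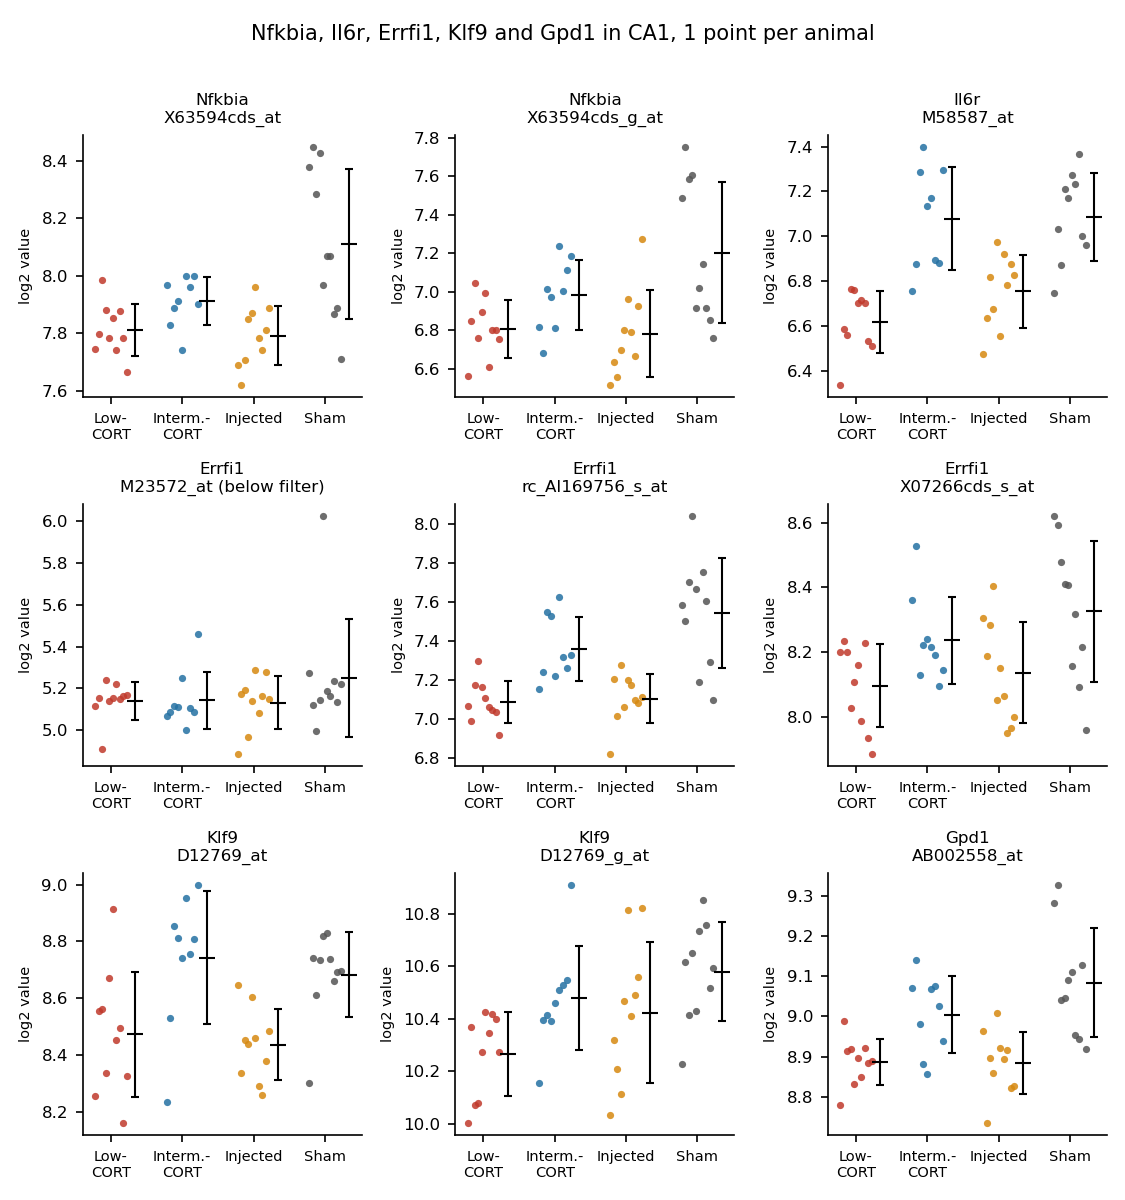
Log2 value (y axis) of each probe set of Nfkbia, Il6r, Errfi1, Klf9 and Gpd1 in the 4 groups (x axis), 1 point per animal in order of subject number, with mean and SD as black bars. Sham animals of Nfkbia X63594cds_at reach from 7.71 to 8.45 while Low-CORT animals stay between 7.67 and 7.99, and for Il6r the Intermediate-CORT and Sham means are 7.08 and 7.09.

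Of the transcription factors, Klf9 was the only one called in the F test, through D12769_at (adjusted p = 0.0443). This probe set had a lowest, median and highest value of 8.16, 8.47 and 8.92 in Low-CORT, 8.23, 8.81 and 9.00 in Intermediate-CORT, 8.26, 8.45 and 8.65 in injected, and 8.30, 8.72 and 8.83 in Sham animals. Intermediate-CORT and Sham animals were mostly high and the 2 groups with the 25 mg pellet mostly low, with overlap in every pair, and 0 of the 6 comparisons passed for D12769_at. D12769_g_at averaged 10.27 ± 0.16 in Low-CORT and 10.58 ± 0.19 in Sham (SD, n = 10 each), and all 10 Low-CORT animals lay below the Sham mean. Its log2 fold change of -0.31 missed the threshold (limma adjusted p = 0.0614). The call was made under 5 of the 8 other settings, among them the fit with subject order (limma adjusted p = 0.00456), with which the deviations of this probe set went up (r = 0.69 over 39 arrays). The 2 probe sets of Klf9 correlated at r = 0.47.

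Cebpd was measured with 3 probe sets, which had log2 fold changes of -0.28, -0.16 and -0.23 in Low-CORT over Sham, none of which passed (limma adjusted p = 0.0999, 0.244 and 0.187). The first, M65149_at, had a lowest, median and highest value of 6.72, 6.89 and 7.17 in Low-CORT, 6.97, 7.14 and 7.37 in Intermediate-CORT, 6.84, 6.94 and 7.37 in injected, and 6.68, 7.19 and 7.60 in Sham animals. The Sham range enclosed that of every other group. M65149_at correlated with rc_AI045030_s_at at r = 0.82 over the 39 arrays and with rc_AA946292_at at r = 0.42.

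Cebpb varied as much within groups as between them. X60769mRNA_at had a lowest, median and highest value of 6.89, 7.25 and 7.54 in Low-CORT, 6.95, 7.56 and 8.11 in Intermediate-CORT, 6.99, 7.43 and 8.34 in injected, and 6.80, 7.46 and 8.07 in Sham animals. The value of Low-CORT over Sham was -0.24, with a 95% interval of -0.53 to 0.06. S77528cds_s_at, just below the filter, averaged 6.06 ± 0.36 in Low-CORT and 6.33 ± 0.39 in Sham (SD, n = 10 each). The deviations of S77528cds_s_at and of rc_AI045030_s_at of Cebpd both went down with the difference between the 3′ and 5′ probe sets of actin, a sign of RNA or label length (r = -0.70 each over 39 arrays), and the part of RNA quality in the values of S77528cds_s_at was not tested. With the 3′ to 5′ differences in the fit, neither X60769mRNA_at of Cebpb nor a probe set of Cebpd passed in Low-CORT over Sham.

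Among the metabolic and cytoskeletal genes, Gpd1 passed with the smallest standard error of the 15. AB002558_at had a lowest, median and highest value of 8.78, 8.89 and 8.99 in Low-CORT, 8.86, 9.03 and 9.14 in Intermediate-CORT, 8.73, 8.90 and 9.01 in injected, and 8.92, 9.07 and 9.33 in Sham animals. Of the Low-CORT animals, 8 of 10 lay below every Sham animal, and 7 of the 10 injected animals did too. The log2 fold change of Low-CORT over Sham was -0.20 (SE 0.05, adjusted p = 0.0139), or 1.15-fold lower.

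Rhob and Txnip gave no call in any of the 6 comparisons. Rhob averaged 10.63 ± 0.12 in Low-CORT and 10.73 ± 0.11 in Sham (SD, n = 10 each), a difference with a 95% interval of -0.22 to 0.01. Txnip had values of -0.07 and -0.12 in its 2 probe sets, with intervals of -0.22 to 0.09 and of -0.26 to 0.02. For Txnip the 95% interval held 0 in all 6 comparisons, so a difference inside these intervals could not be told from the spread between animals.

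**Figure D3:**
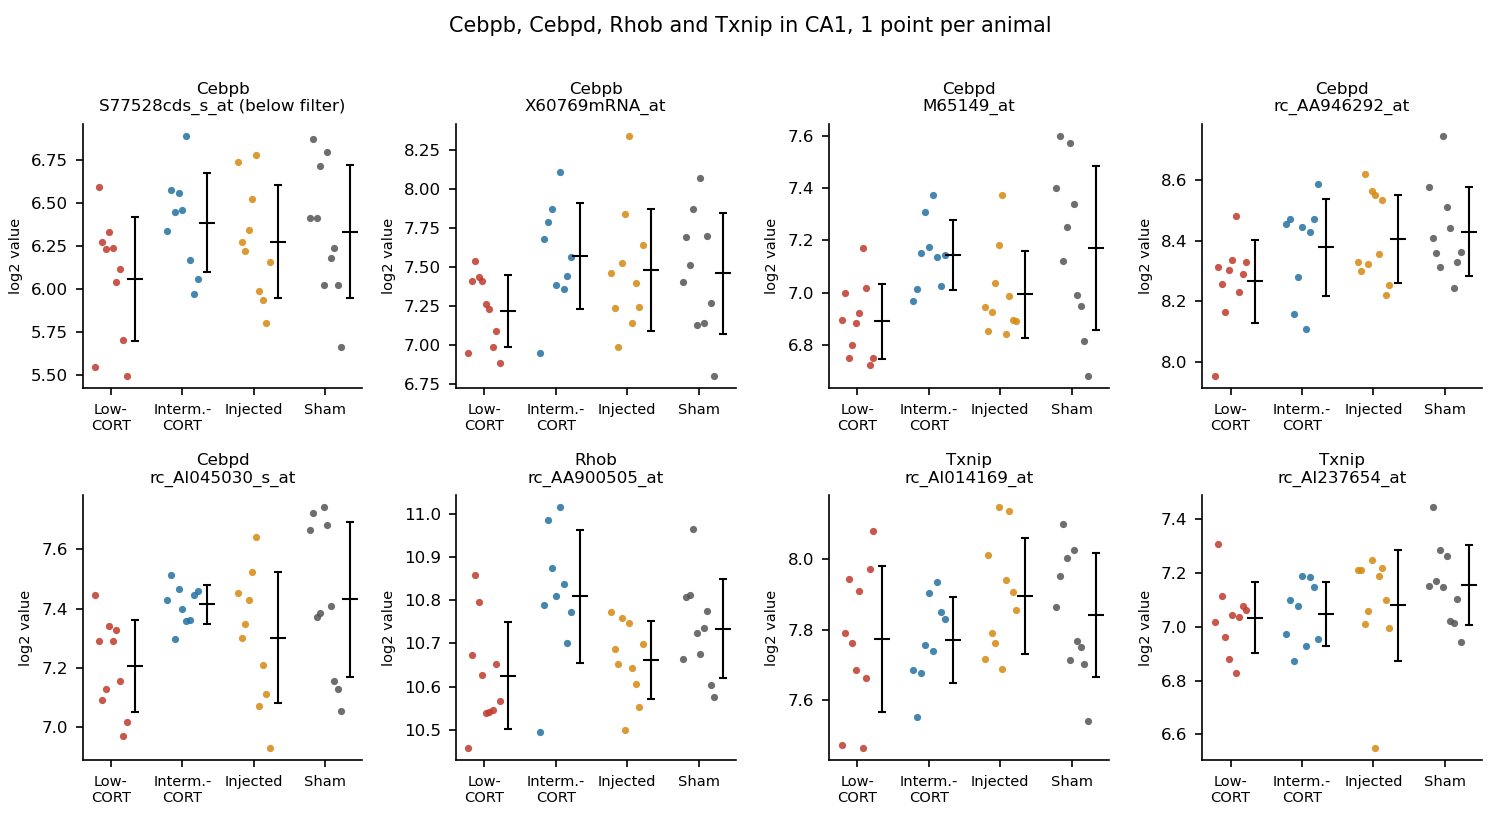
Log2 value (y axis) of each probe set of Cebpb, Cebpd, Rhob and Txnip in the 4 groups (x axis), 1 point per animal in order of subject number, with mean and SD as black bars. The 4 groups overlap for every probe set, and Cebpb has the widest spread, from 6.80 to 8.34 for X60769mRNA_at.

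The calls of Il6r and Errfi1 in Low-CORT over Sham held in every other setting in which they were tested and with each of the 39 arrays left out in turn. Fitted with these 2 groups alone, Nfkbia X63594cds_at (adjusted p = 0.0782), X63594cds_g_at (0.0974) and Gpd1 (0.0618) no longer passed in limma, and X63594cds_g_at was also lost after quantile normalization (adjusted p = 0.0517) and without any 1 of Sham animals 1, 2, 3, 4 and 7 or of Low-CORT animals 20, 23, 24, 26, 27, 28 and 29; its log2 fold change lay between -0.45 and -0.34 over all 39 arrays left out in turn.

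The Intermediate-CORT group asks whether a larger steady dose brings the genes to the level of intact animals. Against Sham, 0 of the 15 probe sets passed in limma, against 0.0163% of all tested probe sets, and 2 had an unadjusted p under 0.05, against 4.22% of all tested probe sets. Those were Nfkbia X63594cds_at at -0.20 (95% interval -0.34 to -0.06) and Errfi1 rc_AI169756_s_at at -0.19 (-0.35 to -0.02). Of the 15, 12 were negative, with a median of -0.07. For Nfkbia, all 9 Intermediate-CORT animals lay below the Sham mean.

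Against Low-CORT, Il6r was higher in the Intermediate-CORT group. Its log2 fold change was 0.46 (SE 0.08, adjusted p = 8.14e-04), and 8 of the 9 Intermediate-CORT animals lay above every Low-CORT animal. It was the 1 probe set of 15 that was called, higher, against 0.637% of all tested probe sets called higher. Of the 15, 14 had a positive value, with a median of 0.18, against 0.01 for all tested probe sets, and 9 had an unadjusted p under 0.05, against 11.9% of all tested probe sets. Errfi1 rc_AI169756_s_at had 0.27 (adjusted p = 0.0823) and all 9 Intermediate-CORT animals above the Low-CORT mean. Klf9 D12769_at had 0.27 (adjusted p = 0.092), Rhob 0.18 (adjusted p = 0.0957) and Cebpd M65149_at 0.25 (adjusted p = 0.181). Cebpb X60769mRNA_at had the largest value after Il6r, 0.35, with a 95% interval of 0.05 to 0.65 (limma adjusted p = 0.31). Nfkbia X63594cds_at had 0.10, with a 95% interval of -0.04 to 0.24. The Low-CORT arrays serve in this comparison and in that of Low-CORT over Sham, so the 2 sets of values are not independent. Pellet dose and drinking water both differ between Intermediate-CORT and Low-CORT animals and cannot be told apart here.

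The count of 1 in this comparison was 3 without Intermediate-CORT animal 11, and 2 without Sham animal 4, Low-CORT animal 22 or Low-CORT animal 25. With array weights in limma it was 5, where Errfi1, Klf9, Cebpd and Rhob passed beside Il6r. Calls over all tested probe sets, in either direction, also went from 131 to 338 with these weights.

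The injected group asks what 4 days of injections with high-dose hormone do on top of the 25 mg pellet. No group was injected without hormone on those days, so hormone and injection cannot be told apart. Relative to Low-CORT, 0 of the 15 probe sets passed in limma, against 0.343% of all tested probe sets, and 1 had an unadjusted p under 0.05, or 6.67%, against 7.37% of all tested probe sets. This was rc_AA946292_at of Cebpd at 0.14 (95% interval 0.01 to 0.27). Nfkbia X63594cds_at had -0.02 (-0.16 to 0.12), Errfi1 rc_AI169756_s_at 0.02 (-0.15 to 0.18) and Gpd1 0.00 (-0.10 to 0.09). Larger values came from Cebpb X60769mRNA_at at 0.26 (-0.03 to 0.56) and Klf9 D12769_g_at at 0.16 (-0.02 to 0.34), and neither passed. Of the 15, 11 were positive and 4 negative, with a median of 0.05. Of all tested probe sets 45.1% were lower, with a median of 0.01. On the same arrays Sult1a1, a sulfotransferase that glucocorticoids induce in rat liver, rose by 1.01 in injected relative to Low-CORT (adjusted p = 3.18e-07), while Sgk1, a kinase and glucocorticoid target, had 0.12 (adjusted p = 0.883).

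Relative to Sham, the injected group kept low values, in a comparison where adrenal removal, hormone, injections and drinking water differ together. Errfi1 rc_AI169756_s_at fell by 0.44 (SE 0.08, adjusted p = 0.00458), Nfkbia X63594cds_at fell by 0.32 (SE 0.07, adjusted p = 0.0246) and Gpd1 fell by 0.20 (SE 0.05, adjusted p = 0.0467). These 3 of 15 probe sets were called lower, against 0.0981% of all tested probe sets called lower. Of the 15, 13 were negative, with a median of -0.18, against a median that rounds to 0.00 for all tested probe sets. Il6r had -0.33 and Nfkbia X63594cds_g_at -0.42, which missed the threshold (limma adjusted p = 0.0771 and 0.101). Txnip rc_AI014169_at and Cebpb X60769mRNA_at had positive values of 0.05 and 0.02.

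The call of Errfi1 held with each of the 39 arrays left out in turn, while those of Nfkbia and Gpd1 depended on single arrays. All 3 were lost in limma when only the arrays of the injected and Sham groups were fitted (adjusted p = 0.0935 for Errfi1 and 0.281 for Nfkbia and for Gpd1), and the count was 1 without Sham animal 2, 3 or 4 or injected animal 31 or 32. The call of Gpd1 was lost under 6 of the 8 other settings: the 2 groups alone, no filter on low values (limma adjusted p = 0.0578), the 50th percentile filter (0.0609), 3′ to 5′ covariates (0.0528), quantile normalization (0.053) and trend with robust variances (0.0539). The call of Nfkbia was also lost without Sham animal 1, and that of Gpd1 was kept only where the array left out was Sham animal 7, 8 or 10, Intermediate-CORT animal 12, 14, 15, 17 or 19, Low-CORT animal 20 or 21, or injected animal 30 or 34. Relative to Intermediate-CORT, 0 of 15 passed in the injected group in limma, against 0.196% of all tested probe sets, and 5 had an unadjusted p under 0.05, against 11.4% of all tested probe sets: Il6r at -0.32, Klf9 D12769_at at -0.31, Errfi1 rc_AI169756_s_at at -0.25, Rhob at -0.15 and Gpd1 at -0.12. Without Intermediate-CORT animal 11 this count was 2.

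For most of the probe sets the values spread less among Low-CORT animals than among Sham animals. The SD of Nfkbia X63594cds_at was 0.09 in Low-CORT and 0.26 in Sham, a ratio of 0.351. The ratio was 0.376 for Errfi1 rc_AI169756_s_at, 0.419 for Gpd1 and 0.458 for Cebpd M65149_at. Over the 15 tested probe sets the median ratio was 0.596, against 0.919 over all 6118, and 7 of the 15 were widest in Sham among the 4 groups, against 28.5% of all. Klf9 D12769_at, Rhob and Txnip rc_AI014169_at went the other way, with ratios above 1. These ratios are given as a description.

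Sham animal 10 had the lowest value of its group in 12 of the 17 probe sets, which covered 7 of the 9 genes (all but Il6r and Klf9). In all tested probe sets this animal was the lowest Sham animal in 8.63%. Its Sgk1 value of 8.45 and its differences between 3′ and 5′ probe sets of Gapdh (1.15) and actin (1.52) were the extremes of the Sham group, the first as its lowest value and the others as its highest. The part of RNA quality in this animal's values was not tested. Without it, 7 of the 15 probe sets were called lower in Low-CORT relative to Sham in place of 5, and Nfkbia X63594cds_at had -0.34. Calls over all tested probe sets, in either direction, rose too, from 103 to 131. Sham animal 2 had the highest value in 6 of the 17 probe sets and the highest Sgk1 value, 10.25.

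**Figure D4:**
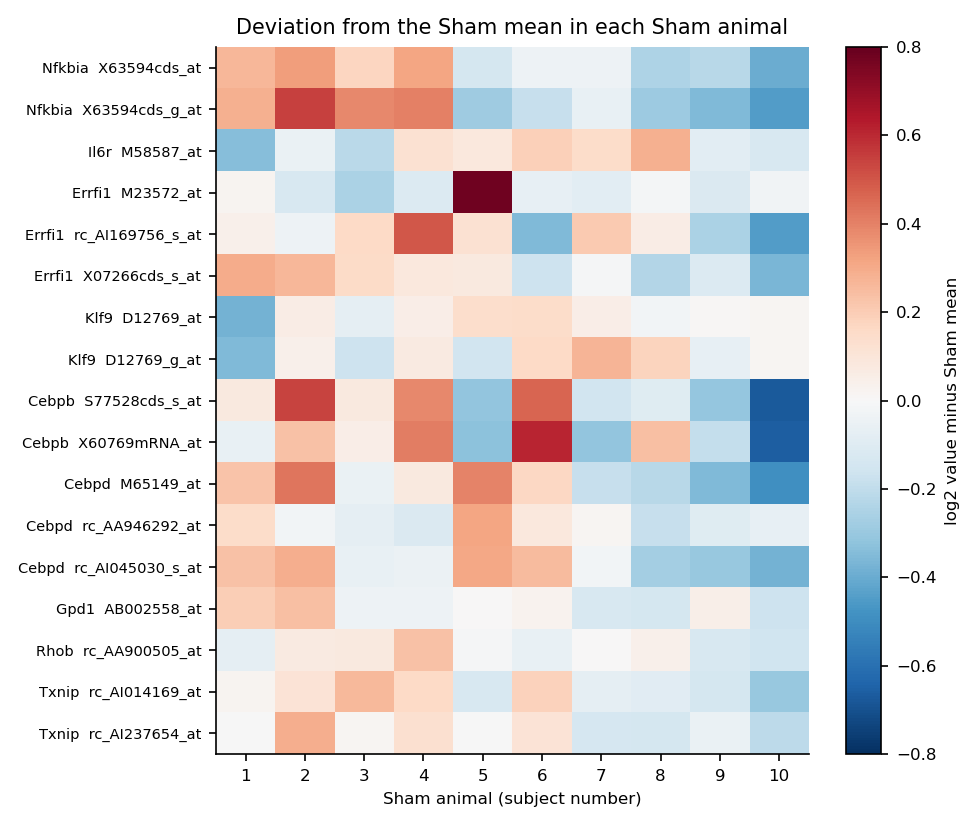
Deviation of each Sham animal (x axis, subject number) from the Sham mean, in log2 units as colour, for the 17 probe sets (y axis). Animal 10 is blue in most rows, being the lowest of its group in 12 of 17, and animals 1 to 4 are red for both probe sets of Nfkbia.

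Sgk1, taken from the list of other glucocorticoid-induced genes, was the gene most like Nfkbia and most like Errfi1 over the 39 arrays. Its level was 7.93 ± 0.17 (SD, n = 10) in Low-CORT, 8.64 ± 0.47 (n = 9) in Intermediate-CORT, 8.05 ± 0.27 (n = 10) in injected and 9.43 ± 0.59 (n = 10) in Sham animals. Since the groups differ in Sgk1, its relation to each of the 9 genes was computed within each group, 36 relations in all. The tested probe set of the smallest F test p stood for each gene. The relation to Sgk1 was chosen after seeing these data. The adjustment covers the 36 relations and not the choice of Sgk1 among all tested probe sets. Its p-values are therefore given as a description. In the 10 Sham animals Nfkbia rose with Sgk1 (Pearson r = 0.909, Spearman rho = 0.903; two-sided permutation p = 3.70e-04 and 8.70e-04, adjusted 0.0133 and 0.0313). Without the 2 animals farthest from the median Sgk1 value, r was 0.828. Cebpd M65149_at did so too in Sham (r = 0.831, rho = 0.855; permutation p = 0.00361 and 0.00266, adjusted 0.0433 and 0.0479), with r = 0.665 without those 2 animals.

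Cebpb rose with Sgk1 in the 10 injected animals by Pearson's r of 0.828 (permutation p = 0.00179, adjusted 0.0322) but missed the threshold by rank (rho = 0.830, permutation p = 0.00474, adjusted 0.0569). Without the 2 farthest animals r was 0.848. The other 33 relations did not pass. Il6r had r = -0.076 (rho = -0.127; permutation p = 0.831 and 0.731) in Sham, where Nfkbia had 0.909; this difference was not tested. The labels give no batch to split by. Sgk1 and Nfkbia X63594cds_at were both higher in Sham animals 1 to 5 than in 6 to 10, at 7.97 to 8.45 and 7.71 to 8.07 for Nfkbia, and 5 animals are too few to give the relation within either set.

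**Figure D5:**
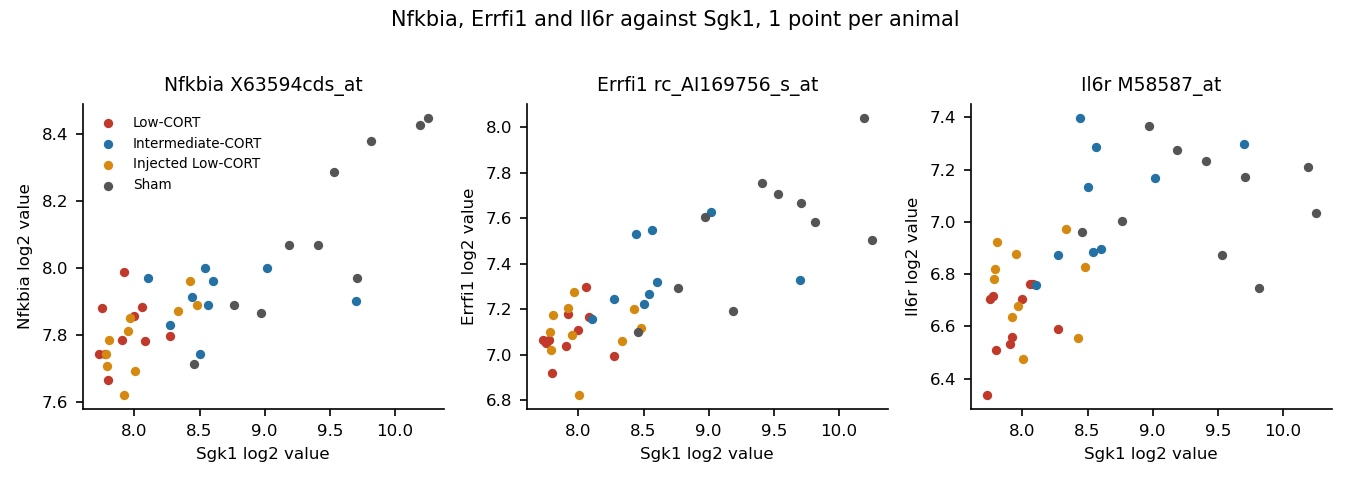
Log2 value of Nfkbia, Errfi1 and Il6r (y axis of each panel) against the log2 value of Sgk1 (x axis), 1 point per animal, coloured by group. Among the Sham points Nfkbia goes up with Sgk1 (r = 0.909), whereas Il6r does not follow it (r = -0.076).

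By likeness over the 39 arrays, each against all tested probe sets, the 3 genes nearest to Nfkbia were Sgk1 (r = 0.826), Errfi1 (r = 0.735) and Gpd1 (r = 0.731), and those nearest to Errfi1 were Sgk1 (r = 0.800), Nfkbia and Il6r (r = 0.667). Il6r was nearest to Syne1 (r = 0.760), Calb1 (r = 0.736) and Bud31 (r = 0.729). Klf9 was nearest to Il6r (r = 0.678), Cds1 and Dusp5, and Gpd1 to Nfkbia, Mchr1 and Snap91. With the group means removed, Sgk1 stayed first for Nfkbia (r = 0.686), while the first gene was Tpm3 for Il6r, Rhob for Errfi1 (r = 0.633), Gnao1 for Klf9 and Cyb5b for Gpd1.

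For the genes without a call the nearest genes over the 39 arrays were others. Cebpb was nearest to Cdh22 (r = 0.83), Ddn (r = 0.827) and Cnih2 (r = 0.810), Cebpd to Ptpn1 (r = 0.727), Wfdc1 and Crabp1, Rhob to Nbl1 (r = 0.735), Asic2 and B3galt5, and Txnip to Ech1 (r = 0.732), the myelin gene Mag (r = 0.71) and Csad. With the group means removed, Cnp, another myelin gene, came first for Txnip (r = 0.751), Ddn for Cebpb (r = 0.815), Ptpn1 for Cebpd (r = 0.658) and Nbl1 for Rhob (r = 0.760). Sgk1 then stood at rank 3 for Cebpd M65149_at (r = 0.618). All of these values come from the same 39 arrays and share whatever differs between arrays.

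Other genes of the same pathways were described from lists chosen by function. Of all 6118 tested probe sets, 103 were called in either direction in Low-CORT over Sham and 131 in Intermediate-CORT over Low-CORT. Of the other glucocorticoid-induced genes, 12 probe sets of 6 genes were tested, and 0 rose and 2 fell in Low-CORT relative to Sham, with a median of -0.21 and all 12 negative. The 2 were Sgk1 at -1.50 (adjusted p = 2.90e-07) and Sult1a1 at -0.98 (adjusted p = 3.33e-07). Both rose in Intermediate-CORT relative to Low-CORT, Sgk1 by 0.71 (adjusted p = 0.0213) and Sult1a1 by 0.84 (adjusted p = 3.06e-05). Ndrg2 and Dusp1 passed in 0 comparisons, with -0.25 and -0.18 in Low-CORT over Sham. Of 13 probe sets of the corticosteroid receptors and their partners, 1 rose and 0 fell in Low-CORT relative to Sham, the mineralocorticoid receptor Nr3c2 at 0.44 (adjusted p = 0.0218).

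The NF-kB pathway that Nfkbia inhibits had 2 other probe sets, of Nfkb1 and Traf2, and 0 of them passed in Low-CORT over Sham in limma. Nfkb1, a subunit of NF-kB, fell by 0.31 in Intermediate-CORT relative to Low-CORT (adjusted p = 0.0445). Of 8 probe sets of interleukin-6 family signalling, which works through the shared chain Il6st and the kinases Jak1 and Jak2, 0 passed in any comparison. Of 12 probe sets of ErbB receptor signalling, which Errfi1 restrains, 0 passed in Low-CORT over Sham and 1 fell in Intermediate-CORT over Low-CORT, the ligand Tgfa at -0.36 (adjusted p = 0.00362). Of 6 probe sets of other Kruppel-like factors, 1 rose in Low-CORT relative to Sham, Klf10 at 0.29 (adjusted p = 0.0153), where the probe sets of Klf9 had negative values. The other C/EBP factors (4 probe sets), the thioredoxin system with other alpha-arrestins (7) and the glycerol phosphate and malate shuttles (12) gave 0 calls in any comparison. Of the 12 shuttle probe sets, 10 had negative values in Low-CORT over Sham, with a median of -0.11.

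Markers of other cell types were set beside these values. Of 13 oligodendrocyte, 12 astrocyte, 10 microglia and macrophage and 5 endothelial probe sets, 0, 0, 1 and 1 rose in Low-CORT relative to Sham and 0 fell, the 2 being Aif1 at 0.53 (adjusted p = 0.0396) and Slco1a4, a transporter of brain capillaries, at 0.56 (adjusted p = 4.21e-04). Negative values were found there for 6 of the oligodendrocyte, 4 of the microglial and 1 of the endothelial probe sets. Of the astrocyte probe sets, 11 of 12 had negative values there, and their mean level lay between 8.63 and 9.43 in Low-CORT and between 8.78 and 9.51 in Sham animals. The mean level of the oligodendrocyte list, whose cells make much Gpd1, lay between 9.69 and 10.39 in Low-CORT and between 9.86 and 10.52 in Sham animals. In Intermediate-CORT over Low-CORT 1 oligodendrocyte probe set (Cnp), 2 microglial ones (Aif1 and Cd53) and 1 endothelial one (Slco1a4) fell, in the comparison where Il6r rose. Negative values were found for 6 of the 13 oligodendrocyte, 8 of the 10 microglial and 4 of the 5 endothelial probe sets, with medians of 0.00, -0.11 and -0.01. Calb1, the only tested marker of dentate granule cells, had -0.61 in Low-CORT over Sham (adjusted p = 4.57e-04) and 0.60 in Intermediate-CORT over Low-CORT (adjusted p = 9.04e-04), and it was among the 3 genes most like Il6r. The part of a changed cell makeup or dissection in these results was not tested.

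The blood list, of Hbb and Alas2, had a mean level between 10.01 and 11.19 in injected animals and between 9.67 and 10.34 in Sham animals, and Alas2 rose by 0.31 in injected relative to Low-CORT (adjusted p = 0.037). The part of blood left in the tissue in the injected group's values was not tested. Of the 3 probe sets of excitatory neuron markers 0 passed in Low-CORT over Sham. In injected relative to Intermediate-CORT, Camk2a M16960_s_at fell by 0.57 (adjusted p = 0.0251). The other tested probe set of Camk2a, J02942_at, was not called there, and the median of the 3 was -0.10. The lists of choroid plexus (3 probe sets) and of fibroblasts and meninges (10 probe sets) gave 0 calls in any comparison.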

How the data were processed

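CA1 RNA of 39 rats was read on 1 Affymetrix array each. The deposited log2 values come as 1 table of 8799 probe sets, with base 2 read from their range (2.82 to 14.37). Per the submitters' processing notes, MAS5, RMA and R 2.7.1 were used, with no role stated, so the algorithm behind the values is unknown here. No further normalization was applied. Groups were taken from the labels, which give no batch. After 59 control probe sets were left out, 6118 probe sets with a mean at or above the 30th percentile entered limma 3.58.1 under R 4.3.3 (1 mean per group, 35 residual degrees of freedom, two-sided, Benjamini-Hochberg over all tested). No pair of arrays was a copy (at most 3 identical values). Labels name separate animals, and their number limits the precision. The code was tested on simulated data. Named genes were the 9 members, up to 4 tested genes per pathway list with the smallest F test p, and the 3 genes nearest to each member; marker genes named beside them were chosen after their values were seen. The members and lists were chosen with earlier results of these data known. The relation to Sgk1 (100000 permutations, or all orders for 9 animals) and the leave-one-out fits were chosen after seeing the data. Other settings are given in the closing section. The result of 1 pathway list is not reported here.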

Additional observations from a re-analysis of the deposited data

Results flagged for a closer look

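In 68 groups of values (17 probe sets in 4 groups), 4 animals stood apart from the rest of their group by Dixon's criterion, which flags about 1 group in 20 by chance. Errfi1 M23572_at, below the filter, had 4.91 in Low-CORT animal 22, the lowest of its group, and 6.03 in Sham animal 5, the highest of its group. Klf9 D12769_at had 8.30 in Sham animal 1, the lowest of its group. Txnip rc_AI237654_at had 6.55 in injected animal 35, the lowest of its group; this array also had the largest difference between the 3′ and 5′ probe sets of Gapdh, 2.41, and the deviations of this probe set went down with that difference (r = -0.61 over 39 arrays). The part of RNA quality in it was not tested.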

How the results depend on the processing

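No paired analysis was possible because each subject number belongs to 1 animal of 1 group. No value changed sign among those called. Called counts over the 15 probe sets (5 in Low-CORT over Sham, 0 in Intermediate-CORT over Sham, 3 in injected over Sham, 1 in Intermediate-CORT over Low-CORT, 0 in injected over Low-CORT, 0 in injected over Intermediate-CORT, 6 in the F test) also moved by small steps. The F test called 4 without a filter on low values, 5 after quantile normalization, 8 with subject order and 9 with array weights. Injected over Sham gave 2 without that filter, after quantile normalization and with trend and robust variances, and 4 with subject order. Low-CORT over Sham gave 6 with array weights or 3′ to 5′ covariates and 7 with subject order. The larger moves follow. With the filter at the 50th percentile they were 2 in Low-CORT over Sham, 1 in injected over Sham, 0 in Intermediate-CORT over Low-CORT and 3 in the F test, where that filter removed Il6r, Errfi1 rc_AI169756_s_at and Nfkbia X63594cds_g_at, and Gpd1 in injected over Sham was tested but did not pass (limma adjusted p = 0.0609). With only the compared groups they were 3, 0 and 3 in Low-CORT over Sham, injected over Sham and Intermediate-CORT over Low-CORT. With array weights they were 5 in injected over Sham, 5 in Intermediate-CORT over Low-CORT and 2 in injected over Intermediate-CORT, and 3′ to 5′ covariates gave 2 in Intermediate-CORT over Low-CORT and subject order 1 in injected over Intermediate-CORT. Over all probe sets, the counts were 103, 1, 14, 131, 21, 12 and 139 in that order, and here too smaller moves are left out. Array weights gave 170, 2, 33, 338, 50, 105 and 307. Subject order gave 185 in Low-CORT over Sham, 2 in Intermediate-CORT over Sham, 30 in injected over Sham, 36 in injected over Low-CORT, 21 in injected over Intermediate-CORT and 224 in the F test. The 3′ to 5′ covariates gave 175 in Low-CORT over Sham, 12 in Intermediate-CORT over Sham, 22 in injected over Sham and 19 in injected over Intermediate-CORT. The 50th percentile gave 5 in injected over Sham and 6 in injected over Intermediate-CORT. The compared groups alone gave 4 in Intermediate-CORT over Sham, 1 in injected over Sham and 0 in injected over Intermediate-CORT. Beyond probe sets removed by a filter and the smaller fits, the cause was not tested. With 1 array left out, member counts ranged over 4 to 7, 0 to 0, 1 to 4, 1 to 3, 0 to 0, 0 to 2 and 4 to 6, and whole counts over 66 to 131, 1 to 3, 9 to 22, 90 to 148, 10 to 28, 4 to 27 and 109 to 159, in the same order. The number of arrays and signal over background limit the precision.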
